A study of Sus scrofa with 6 samples.

Results

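In the ileum of suckling piglets, 342 of 82435 cell barcodes met a rule for neutrophil-like cells of low RNA content, which rests on S100 genes that monocytes share, and 326 of them (95.3%) came from the day 1 library. The barcodes were chosen from the unique molecular identifiers (UMIs, each counting 1 captured transcript) that they held. A barcode entered with 800 to under 3000 UMIs, at least 200 genes, and at least 20 UMIs summed over S100A8, S100A9 and S100A12. It could hold at most 1 UMI of the T cell genes CD3E and CD3G, none of the B cell genes MS4A1 and PAX5, and fewer than 3 of the epithelial genes EPCAM, KRT8 and VIL1. The 82435 barcodes are those of at least 800 UMIs and 200 genes in all libraries, so the neutrophil-like barcodes made up 0.415% of them. The levels of the S100 genes, the gate genes and the UMI totals chose the barcodes and are given below as a description only.

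The series followed ileal mucosa over the first 3 weeks of life in Large White piglets, which the labels give as male, untreated animals kept on maternal milk with no antibiotics. Cells were captured in droplets and their transcripts counted from the 3' end. There was 1 library for each of 6 ages, from the day of birth (day 0) to day 21, and the methods give 5 piglets per age. Age and library therefore cannot be told apart, differences between ages carry no test, and no animal-to-animal spread can be given. The series description names the cecum where the sample labels name the ileum, and the labels are followed here.

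Neutrophils are short-lived granulocytes that leave the bone marrow, circulate, and enter tissue along chemokine and complement gradients. They hold little RNA and much S100A8, S100A9 and S100A12, calcium-binding alarm proteins of the cytosol, and droplet pipelines that ask for many UMIs per cell can leave them out. Granule proteins are transcribed in sequence while the cells mature in the marrow, so a circulating neutrophil has largely stopped making the transcripts of its earliest granules. Monocytes also express the S100A8 group, together with LYZ, CSF1R and VCAN, and macrophages add the complement C1q chains and MHC class II.

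The 6 libraries held between 77391932 and 100348769 UMIs each, and the median barcode of at least 800 UMIs held between 3352 and 4448. Of the 326 day 1 barcodes, 4 (1.23%) had the same barcode sequence among the barcodes of at least 800 UMIs in another library, against 242 of 12635 day 1 barcodes (1.92%) in general, and none was neutrophil-like in another library. Of the neutrophil markers that the rule did not use, CSF3R, CXCR2, MMP8, MMP9 and TREM1 were present in the day 1 barcodes above their levels in free RNA, and CD177 was not seen. C4BPA and IFIT1 were above free RNA too, but were named with earlier results of these data known and are a description. The monocyte genes CD14 (21.9 UMIs per 10000 against 0.519) and FCN1 (16.1 against 0.453) also stood above free RNA. The label fits the barcodes unevenly, since 78 of the 326 also held LYZ and further monocyte genes, and 13 of the 16 barcodes of other ages held LYZ. Monocyte genes were not confined to these. Of the day 1 barcodes without LYZ, 77.8% held CD14 and 66.1% FCN1, against 66.5% with CSF3R. No doublet caller was run, and barcodes that hold more than 1 cell were kept. Intervals in brackets are exact at the 95% level and cover counting error within a library only.

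Neutrophil-like barcodes numbered 2 at day 0, 326 at day 1, 5 at day 3, 2 at day 7, 7 at day 14 and 0 at day 21. As a share of the barcodes of 800 to under 3000 UMIs, day 1 stood at 6.68% (5.99 to 7.41) of 4883. The share was 0.0382% (0.00463 to 0.138) of 5229 at day 0 and 0.110% (0.0356 to 0.256) of 4560 at day 3. Day 1 thus stood far above both neighbouring ages, whose intervals overlap each other. The share was 0.0358% (0.00434 to 0.129) of 5585 at day 7 and 0.154% (0.0620 to 0.317) of 4539 at day 14. At day 21 there were 0 of 5782, which allows a share of up to 0.0519% by 3 counts and 0.0638% by the exact interval. Together the 5 other libraries gave 16 of 25695 barcodes, or 0.0623% (0.0356 to 0.101).

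The gates took little away from these counts. With the S100 requirement alone, the same UMI range held 333 barcodes at day 1 and 9 at day 14, and the B cell limit removed 7 and 2 of these, while the T cell and epithelial limits removed none. S100-rich barcodes of 3000 UMIs or more that passed the same limits were also concentrated at day 1, with 269 there, 16 at day 14, 1 each at day 0, day 3 and day 7, and 0 at day 21. Within day 1, S100-rich barcodes made up 15.4% of barcodes of 800 to under 1200 UMIs (159), 7.90% of those of 1200 to under 2000 UMIs (115) and 1.98% of those of 2000 to under 3000 UMIs (52). Outside the rule the share did not fall steadily with depth. It was 6.06% at 500 to under 800 UMIs, 2.87% at 3000 to under 5000, 4.45% at 5000 to under 10000 and 3.41% from 10000 upward.

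RNA released from broken cells reaches every droplet, and its composition was read from the barcodes of at most 100 UMIs in the same library. In this free RNA the 3 S100 genes took 0.397 of every 10000 UMIs at day 0, 8.89 at day 1, 0.166 at day 3, 0.0171 at day 7, 0.412 at day 14 and 0 at day 21. Free RNA of day 1 was thus the richest in S100 transcripts as well. The neutrophil-like barcodes of day 1 held 507 S100 UMIs per 10000 (501 to 514), 57.1-fold (55.2 to 59.0) the level of their free RNA. At the free RNA level a median day 1 barcode would hold 1.08 S100 UMIs and the deepest 2.65, against an observed 20 to 621 with a median of 49.5. The few barcodes of the other ages held 484 (416 to 559) at day 0, 296 (265 to 329.8) at day 3, 295 (246 to 351) at day 7 and 222 (199 to 247) at day 14.

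**Figure D1:**
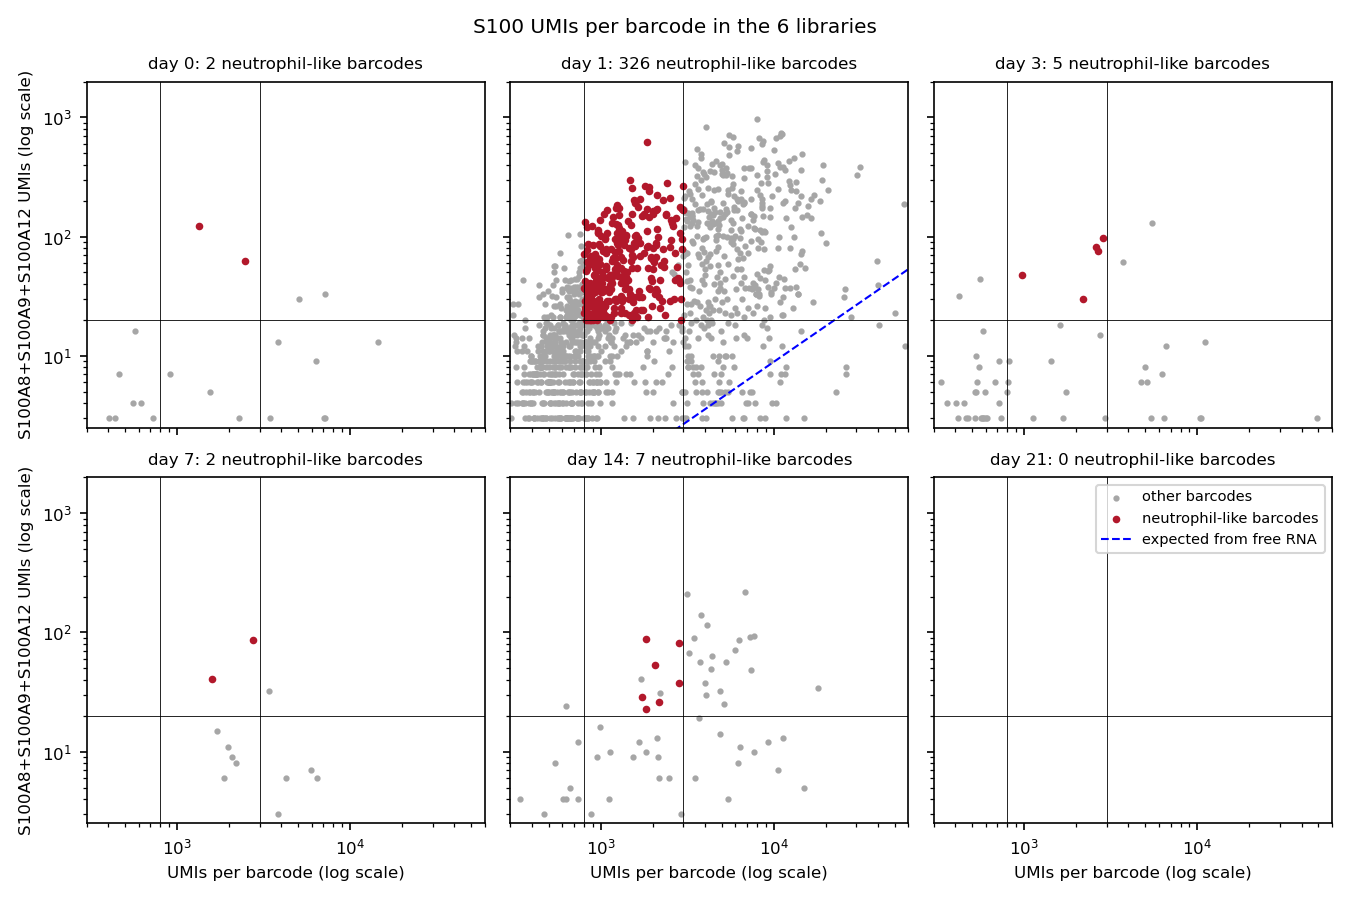
Summed UMIs of S100A8, S100A9 and S100A12 (y axis, log scale) against all UMIs (x axis, log scale) for each barcode with at least 300 UMIs and 3 S100 UMIs, with 1 panel per library, neutrophil-like barcodes in red, black lines at the limits of the rule and a dashed line at the S100 UMIs expected from free RNA. Day 1 holds 326 red points and the other libraries 16, day 21 has no barcode to draw, and the dashed line enters the plotted range at day 1 only.

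The limits of the rule cut through a continuous range of barcodes. At day 1, 38 barcodes held 20 to 24 S100 UMIs, with 8.04 UMIs of CSF3R and 11.5 of LYZ per 10000, and the 40 barcodes with 15 to 19 held 12.3 and 19.9. On the lower UMI limit, the 52 barcodes in the first 100 UMIs from 800 held 13.8 CSF3R UMIs per 10000 and the 39 barcodes in the 100 UMIs below it held 13.9. On the upper limit, the 7 barcodes in the last 100 UMIs below 3000 held 0.971 CSF3R and 43.2 LYZ UMIs per 10000, and the 11 barcodes in the first 100 from there held 2.68 and 31.3. The pair on the lower UMI limit lay close together, and the pairs on the other 2 limits had unlike values of both genes. These values come from few barcodes and have no intervals, so the differences may lie within counting error.

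The day 1 neutrophil-like barcodes were next set against other barcodes of their own library, gene by gene, in sums of UMIs. They held 454807 UMIs in all, with a median of 1218 UMIs, 513 genes and 3.90% mitochondrial UMIs per barcode. The main comparison group was the 777 barcodes of at least 3000 UMIs in which LYZ, CST3 and AIF1 together reached 10 UMIs, a mixed group that takes in monocytes and macrophages, with a median of 9199 UMIs. Of these, 267 (34.4%) were S100-rich themselves, 141 (18.1%) held at least 3 UMIs of the C1q chains and 97 (12.5%) at least 3 of the epithelial genes. Of the neutrophil-like barcodes, 41 (12.6%) held 10 UMIs of LYZ, CST3 and AIF1. A gene is called higher or lower below where the ratio of the levels reached 4-fold and the higher side had more than 3 UMIs. Among 11846 genes with at least 20 UMIs in either group, 485 (4.09%) were at least 4-fold higher in the neutrophil-like barcodes and 1632 (13.8%) at least 4-fold lower. The higher genes were 22.9% of these calls. With TMM scaling, which moved every log2 ratio up by 0.80, 988 genes were higher and 517 lower, a share of 65.6%. With 1 library there is no test of these differences.

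Receptors of circulating neutrophils had the highest median ratio of the 15 gene lists. Of 17 listed, 14 were among the genes of the files, 13 had enough UMIs, 10 were at least 4-fold higher and none was lower, against 4.09% and 13.8% of all genes, and the median log2 ratio was 3.43 against -0.47 over all genes. The receptor of granulocyte colony-stimulating factor, CSF3R, stood at 8.38 UMIs per 10000 against 0.430, a ratio of 19.5 (17.0 to 22.4). CXCR2, the receptor by which neutrophils follow CXCL8, stood at 5.01 against 0.151, a ratio of 33.3 (27.1 to 41.0). Free RNA held 0.196 of CSF3R and 0.0936 of CXCR2, below both groups. C5AR1, the receptor of complement fragment C5a, stood at 8.75 against 0.236, a ratio of 37.0 (31.5 to 43.6). TREM1, an activating receptor of neutrophils and monocytes, stood at 12 against 0.570, a ratio of 21.0 (18.7 to 23.7). The adhesion molecule SELPLG, the P-selectin ligand, was 13.7-fold (11 to 17.0) higher. The bacterial sensors TLR2 and TLR4 were 9.91-fold and 10.8-fold higher, the decoy receptor IL1R2 7.63-fold, and PTAFR, the receptor of platelet-activating factor, 7.95-fold. These ratios moved with the comparison barcodes. Without the S100-rich ones CSF3R was 38.7-fold and TREM1 121-fold higher. Against those of 3000 to under 5000 UMIs the ratio was 5.24 for CSF3R, 6.41 for CXCR2, 10.3 for C5AR1 and 2.89 for TREM1, and the median log2 ratio of the list was 1.82. ITGB2 (3.57), ITGAM and FCGR3A (2.43) lay under 4-fold. CD177, a neutrophil surface protein, had 0 UMIs, which allows 0.0660 per 10000, and the symbols CXCR1, FPR1 and FPR2 were not among those of the files. Whether these genes were counted under LOC symbols was not examined.

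Of 18 granule and antimicrobial genes in the files, 11 had enough UMIs. Of these, 4 were at least 4-fold higher and none was lower, against 4.09% and 13.8% of all genes. MMP8 among the 4 reached 20 UMIs in the neutrophil-like barcodes alone. MMP8, the neutrophil collagenase, had 288 UMIs in the neutrophil-like barcodes and 1 UMI in the comparison group, a level of 6.33 against 9.41e-04 per 10000 and a ratio of 6728 (1198 to 266650.2). With the comparison side raised to 3 counts the ratio was 2243. On that basis it was 1134 with the same gates and 129 against comparison barcodes of 3000 to under 5000 UMIs. MMP9, the gelatinase of the last granules, stood at 2.22 against 0.119, a ratio of 18.7 (14.3 to 24.5). CHI3L1 was 5.61-fold (4.72 to 6.64) higher and the iron-binding LTF 4.07-fold (2.19 to 7.10), from 15 UMIs. The transcripts of MPO, ELANE, PRTN3, BPI, NPG1, PMAP-23, PMAP-36 and PR39, which encode granule enzymes and antimicrobial peptides, were at 0 UMIs, which allows 0.0660 per 10000 for each, and AZU1 had 3 UMIs. ARG1, an arginine-degrading enzyme, stood at 15.9 against 7.94. PADI4, which citrullinates histones when neutrophils release their chromatin and was in none of the lists, stood at 2.90 against 0.0320, a ratio of 90.7 (61.8 to 136), which ranged from 10.5 against comparison barcodes of 3000 to under 5000 UMIs to 817 without the S100-rich ones. Among 5 NADPH oxidase genes, which make superoxide, NCF1 (11.3) and RAC2 (5.35) were at least 4-fold higher, none was lower and the median log2 ratio was 1.04.

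Inflammatory mediators stood higher in 9 of 17 genes and lower in none, against 4.09% and 13.8% of all genes, with a median log2 ratio of 2.18. That median was 1.39 with the same gates on the comparison barcodes, 0.94 as a mean over barcodes and 0.47 against those of 3000 to under 5000 UMIs. G0S2, an inhibitor of fat breakdown, stood at 228 UMIs per 10000 against 13.1, a ratio of 17.4 (17.0 to 17.9), which became 9.93 with the same gates and 98.7 without S100-rich comparison barcodes. CXCL8, the chemokine that draws further neutrophils, stood at 31.9 against 3.25, a ratio of 9.81. OSM, a cytokine of the IL-6 family, was 17.5-fold higher, TNFAIP6 14.1-fold, and ALOX5AP, needed for leukotriene synthesis, 10.5-fold. RETN, which encodes resistin, and the transglutaminase TGM3, both named after their values were seen, were 17.6-fold and 14.1-fold higher. They stood at 183 and 161 UMIs per 10000, and S100-rich barcodes of 3000 UMIs or more held 54.0 and 53.1, within 4-fold. PLAUR, IL1A, SOD2 and IL1B lay between 4.52-fold and 6.16-fold. IL1B had the weakest ratio of the 9 mediators, at 41.6 against 9.20, which lay under 4-fold with the same gates (2.62) and as a mean over barcodes (1.57), and its level was close to that in the comparison barcodes of 3000 to under 5000 UMIs, at a ratio of 0.956. Of those 154 shallower comparison barcodes, 90 (58.4%) were S100-rich, and against them TREM1, NCF1, ISG15, G0S2, OSM, IL1B and CD14 lay under 4-fold while CSF3R, CXCR2, C5AR1, C4BPA and the IFIT genes did not.

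Interferon-stimulated genes were uneven. Of 34 with enough UMIs, 9 were at least 4-fold higher, 2 lower and 23 between these limits. Over all genes 4.09% were higher and 13.8% lower. The median log2 ratio of the list was 1.24. The 3 neighbouring IFIT genes, which bind foreign RNA, had the highest ratios. IFIT1 (chromosome 14, 101237403 to 101249486, Sscrofa11.1) stood at 13.9 against 0.481, a ratio of 28.8 (25.6 to 32.5). IFIT2 and IFIT3 were 30.4-fold (25.7 to 35.9) and 29.1-fold (25.3 to 33.4) higher. Against comparison barcodes of 3000 to under 5000 UMIs the ratios were 18.9 for IFIT1, 14.8 for IFIT2 and 8.65 for IFIT3. Free RNA held 0.553 of IFIT1, above the comparison group. HERC5, the ligase that attaches ISG15 to proteins, was 8.42-fold higher, ISG15 itself 5.81-fold, at 73.7 against 12.7 (3.58-fold with the same gates), and the RNA sensor IFIH1 5.70-fold. HERC6, IFITM3 and ISG20 completed the 9. MX1 (1.16) and IFI6 (0.848), also induced by interferon, were near the comparison level. CXCL10, the interferon-induced chemokine for T cells, was 15-fold (10.9 to 21.1) lower, at 0.836 against 12.5, and ISG12(A) had a ratio of 0.124. The list was thus found on both sides of the comparison group, and its summed level was 252 UMIs per 10000 against 77.3 in the comparison group and 39 in free RNA.

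Among complement genes, receptors and regulators stood apart from the components. Of 19, 3 were higher and 8 lower, against 4.09% and 13.8% of all genes, and the median log2 ratio was -1.22. C4BPA, the alpha chain of the C4b-binding protein that restrains complement, stood at 11.4 against 0.379, a ratio of 30.1 (26.4 to 34.4), which became 16.6 as a mean over barcodes and 4.08 against comparison barcodes of 3000 to under 5000 UMIs. The symbol C4BPA has 2 loci on chromosome 9 of Sscrofa11.1, at 67726159 to 67774369 and 67815544 to 67827509, so the copy that was counted is uncertain. C3AR1, the receptor of fragment C3a, was 18.5-fold (15.5 to 22.0) higher, and CD55, which breaks up C3 convertases, 8.57-fold. The lower genes included C1QA, C1QB, C1QC, C3 and CFB. The median of this list changed sign, to 0.09, when the comparison barcodes had to pass the same T, B and epithelial limits.

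Antigen-presentation genes and part of the macrophage genes were lower. All 7 MHC class II genes were at least 4-fold lower, where 13.8% of all genes were lower and 4.09% higher. Their median log2 ratio was -4.52, with a sum of 7.04 UMIs per 10000 against 171 in the comparison group and 38.5 in free RNA. SLA-DRA was 27.7-fold (21.7 to 36.0) lower, at 1.41 against 39, and CD74, the invariant chain, 19.9-fold. Against comparison barcodes of 3000 to under 5000 UMIs their ratios were 0.117 and 0.0968. Against S100-rich barcodes of 3000 UMIs or more they were 0.256 and 0.354, which lay within 4-fold. C1QA had 6 UMIs in the 326 barcodes, 116-fold (53.3 to 316) below the comparison group. Of 18 monocyte and macrophage genes, CST3, APOE, MRC1 and the 3 C1q chains were lower and CD14, the lipopolysaccharide coreceptor, was higher (5.54, but 3.16 with the same gates and 2.63 as a mean over barcodes), while 11 lay within 4-fold and the median log2 ratio of the list was 0.10. LYZ, CST3 and AIF1 had chosen the comparison barcodes, and their ratios of 2.40, 0.0529 and 1.02 are given as a description.

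Markers of other cell types were sparse, apart from CCL5 of the T and NK genes. Epithelial genes, 3 of which were limited by the rule, summed to 5.10 UMIs per 10000 against 58.8 in the comparison group and 60.8 in free RNA. The comparison group had no such limit. FABP6, the ileal bile acid-binding protein, stood at 1.41 against 13.7 in free RNA, and APOA1 at 1.80 against 28.3. Both genes thus lay below the composition of free RNA. B and plasma cell genes, which include MS4A1 and PAX5 that the rule set to 0, summed to 0.440, stromal and endothelial genes to 0.550, erythroid and platelet genes to 0.0879 and mast cell, basophil and eosinophil genes to 0.110, the last with 7 of its 9 genes at 0 UMIs. T and NK genes, of which the rule capped CD3E and CD3G, summed to 14.7 against 5.82, of which CCL5 gave 13.8, while CD3D, CD2 and CD7 were at 0 UMIs. Of 7 T and NK genes with enough UMIs, 1 was at least 4-fold higher and 0 lower, against 4.09% and 13.8% of all genes. Within the S100 family, S100A11 was 5.52-fold higher, S100A4, S100A10, S100A14, S100A16 and S100G were at least 4-fold lower, and S100A6 had a ratio of 1.04.

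Where at least 10% of the barcodes of either group held the gene, the 10 highest ratios were those of MMP8, LOC100515345, LOC110259329, PADI4, KCNJ15, LOC110261048, NFE2, LOC100518417, LRG1 and CSF1. NFE2, a transcription factor of the erythroid and myeloid lineages, was 74.5-fold (45.1 to 128) higher, KCNJ15, a potassium channel, 84.4-fold, LRG1, a glycoprotein of neutrophil granules, 47.7-fold, and CSF1, the growth factor of macrophages, 46.3-fold. The 10 lowest belonged to C1QA, C1QC, C1QB, CXCL14, AOC1, SLA-DQB1, IL4I1, MS4A12, ENPEP and SLA-DRB1, which are macrophage, MHC class II and epithelial genes. The rule limited EPCAM, KRT8 and VIL1 in the neutrophil-like barcodes only. Of the 777 comparison barcodes, 97 (12.5%) held at least 3 UMIs of these genes. The ranks of the epithelial genes are therefore a description.

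**Figure D2:**
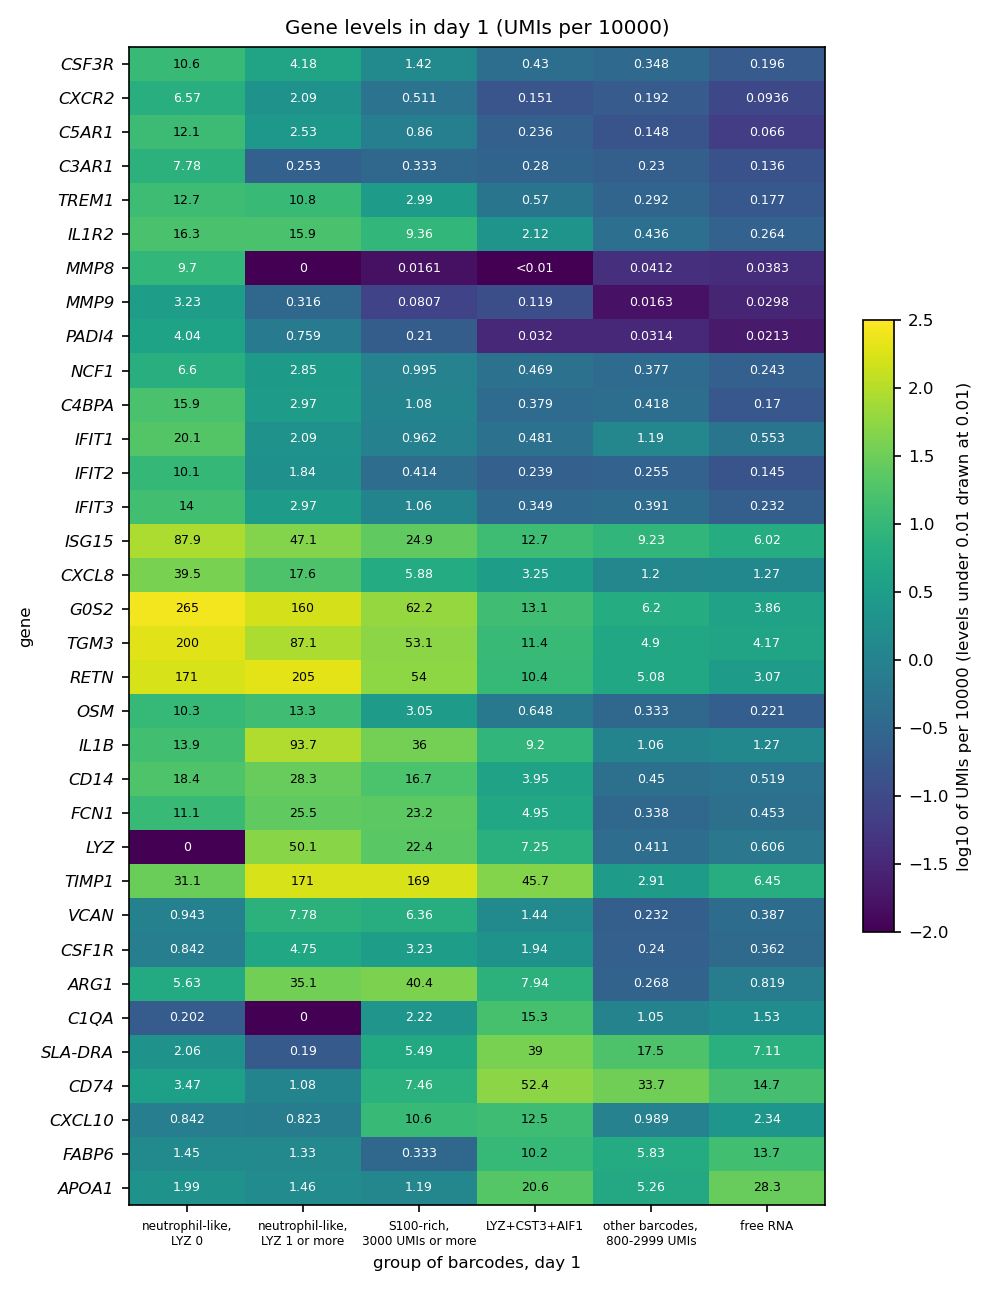
Levels of 34 genes in UMIs per 10000 (printed in each cell, with colour giving log10 of the level) in 6 groups of day 1 barcodes, with the neutrophil-like barcodes split into those without and with a LYZ UMI. CSF3R is 10.6 and 4.18 in the neutrophil-like columns against 1.42 in S100-rich barcodes of 3000 UMIs or more and 0.430 in the LYZ+CST3+AIF1 barcodes, while SLA-DRA is 2.06 and 0.190 in the neutrophil-like columns and highest in the LYZ+CST3+AIF1 barcodes.

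The neutrophil-like barcodes were also set against the 4557 other day 1 barcodes of the same UMI range, whose median of 2123 UMIs (quartiles 1481 and 2582) still lay above their own of 1218 (950.0 and 1676). Here 694 of 11591 genes (5.99%) were at least 4-fold higher and 1012 (8.73%) lower. All 13 receptors measured were higher, as were 13 of 16 mediators and 14 of 32 interferon-stimulated genes, and 7 of 7 MHC class II genes were lower, all with at least 20 UMIs in the other barcodes. Of 17 monocyte and macrophage genes, 10 were higher as well and 3 lower. This comparison therefore cannot tell neutrophils from monocytes. Of the 18 granule genes, 5 had 20 UMIs there and all 5 were higher. CSF3R, CXCR2 and C5AR1 were 24.1-fold, 26.1-fold and 58.9-fold higher, C4BPA 27.3-fold and IFIT1 11.6-fold. Outside the genes of the rule, the highest were MMP8 (154-fold, 109 to 222), MMP9 (137-fold, with 15 UMIs in the other barcodes), PADI4 (92.3-fold), NFE2 (68.0-fold) and the chitinase CHIT1 (65.6-fold), with LOC110256379 and LOC110256043 beside them. The median mitochondrial share of these other barcodes was 6.37% against 3.90%, and its upper quartile 39.2% against 5.86%, and its part in the result was not tested.

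A further comparison used the 269 S100-rich barcodes of 3000 UMIs or more, in which the 3 S100 genes took 2.73% of UMIs against 5.07%. Of these, 231 (85.9%) also belonged to the LYZ+CST3+AIF1 group. Between the S100-rich barcodes of low and high UMI count, 224 of 5670 genes (3.95%) were at least 4-fold higher at low UMI count and 401 (7.07%) lower. Of 13 receptors, 7 were higher and none lower, or 6 of the 12 with at least 20 UMIs at high UMI count, with a median log2 ratio of 2.01 against -0.55 over all genes. CSF3R was 5.90-fold (5.03 to 6.93) higher and CXCR2 9.81-fold (7.69 to 12.6). C4BPA was 10.6-fold (9.01 to 12.6) and IFIT1 14.4-fold (12.2 to 17.1) higher, and MMP8 had 288 UMIs against 3, a ratio of 393 (133 to 1915). In contrast, IL1B (1.16) and LYZ (0.778) were within 4-fold, CXCL10 had a ratio of 0.0789, and 3 of 7 MHC class II genes were lower. Of 16 mediators, 1 was higher in this comparison and none was lower.

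The neutrophil-like barcodes were not uniform. LYZ, which encodes lysozyme, was at 0 UMIs in 248 of the 326 day 1 barcodes and at 1 or more in 78 (23.9%), and LYZ was chosen for a split after its values were seen. Barcodes without LYZ had a median of 1062 UMIs and those with LYZ 1998. Over 1658 genes, 135 (8.14%) were at least 4-fold higher without LYZ and 74 (4.46%) with LYZ. MMP8 had 288 UMIs without LYZ and 0 with it, at least 51.1-fold higher, and CRISP3, a protein of specific granules, had 89 and 0, at least 15.8-fold higher. HP, which encodes haptoglobin, had 65 and 0. These 3 genes and C3AR1 reached 20 UMIs through the barcodes without LYZ alone and are given as a description. C3AR1 had 231 UMIs and 4, a ratio of 30.7, C4BPA 473 and 47, a ratio of 5.36 (3.97 to 7.39), and IFIT1 598 and 33, a ratio of 9.65 (6.80 to 14.1). CSF3R and CXCR2 were 2.54-fold (1.94 to 3.37) and 3.15-fold (2.17 to 4.70) higher without LYZ, and so were present in both classes.

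The barcodes with LYZ held higher levels of several monocyte genes, beside the neutrophil receptors. Of 11 monocyte and macrophage genes with enough UMIs, 5 were at least 4-fold higher with LYZ, LYZ among them, against 4.46% of all genes. As counted, CD14 was seen in 77.8% of barcodes without LYZ and 92.3% with it, and FCN1 in 66.1% and 93.6%. Without LYZ itself, the other 17 genes of the monocyte and macrophage list summed to 109.6 UMIs per 10000 in barcodes with LYZ and 46.1 in those without, against 112 in the comparison group, which LYZ, CST3 and AIF1 had chosen. The matrix protein VCAN was 8.25-fold higher with LYZ, the CSF1 receptor CSF1R 5.63-fold and the lipase-like PLBD1 20.7-fold. IL1B was 6.75-fold (6.05 to 7.55) higher, ARG1 6.24-fold and TIMP1, an inhibitor of metalloproteinases named here after its values were seen, 5.50-fold (5.10 to 5.93). The scavenger receptor CD163 was 16.3-fold higher. Summed as a class, the 78 barcodes with LYZ thus held monocyte genes and the receptors CSF3R and CXCR2. The sums do not show that each barcode held both sets of genes. These receptors were not confined to neutrophil-like barcodes. As counted, CSF3R was seen in 57.7% of barcodes with LYZ and 56.1% of S100-rich barcodes of 3000 UMIs or more. Thinned to equal depth, as described below, these shares were 25.6% and 13.8%. MMP8 had 0 UMIs with LYZ. Whether these 78 barcodes were neutrophils, monocytes or a mixture was not tested. MHC class II genes summed to 9.33 without LYZ and 2.72 with it, and T and NK genes to 16.7 and 10.8. TREM1 (12.7 and 10.8), IL1R2 (16.3 and 15.9) and OSM (10.3 and 13.3) were nearly level between the classes without and with LYZ.

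For the genes named next, shares of barcodes gave the same order once each barcode was thinned at random to 800 UMIs. The 1769 barcodes with 2 or more UMIs of CD3E and CD3G, with a median of 4297 UMIs before thinning, served as T cells that should lack the myeloid genes. C4BPA was detected in 69.8% of barcodes without LYZ, 15.4% with LYZ, 8.18% of S100-rich barcodes of 3000 UMIs or more and 0.452% of T cells. CXCR2 was detected in 44.8%, 16.7%, 5.58% and 0.113%, and CSF3R in 54.8%, 25.6%, 13.8% and 0.678%. MMP8 was detected in 33.5% of barcodes without LYZ and in 0 of the 78 with LYZ, where the exact interval reaches 4.62%. IL1B ran the other way, at 10.5% without LYZ, 80.8% with LYZ and 73.2% of the S100-rich barcodes. IFIT1 was detected in 49.6%, 12.8% and 7.81%, and in 8.71% of T cells (33.6% without thinning), so in the last 2 myeloid classes it was near the T cell share. Without thinning, all 326 barcodes had CSF3R in 64.4%, CXCR2 in 46.9%, C4BPA in 66.6%, IFIT1 in 46.9% and MMP8 in 29.4%, against 47.9%, 38.0%, 56.7%, 40.8% and 25.5% with it.

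**Figure D3:**
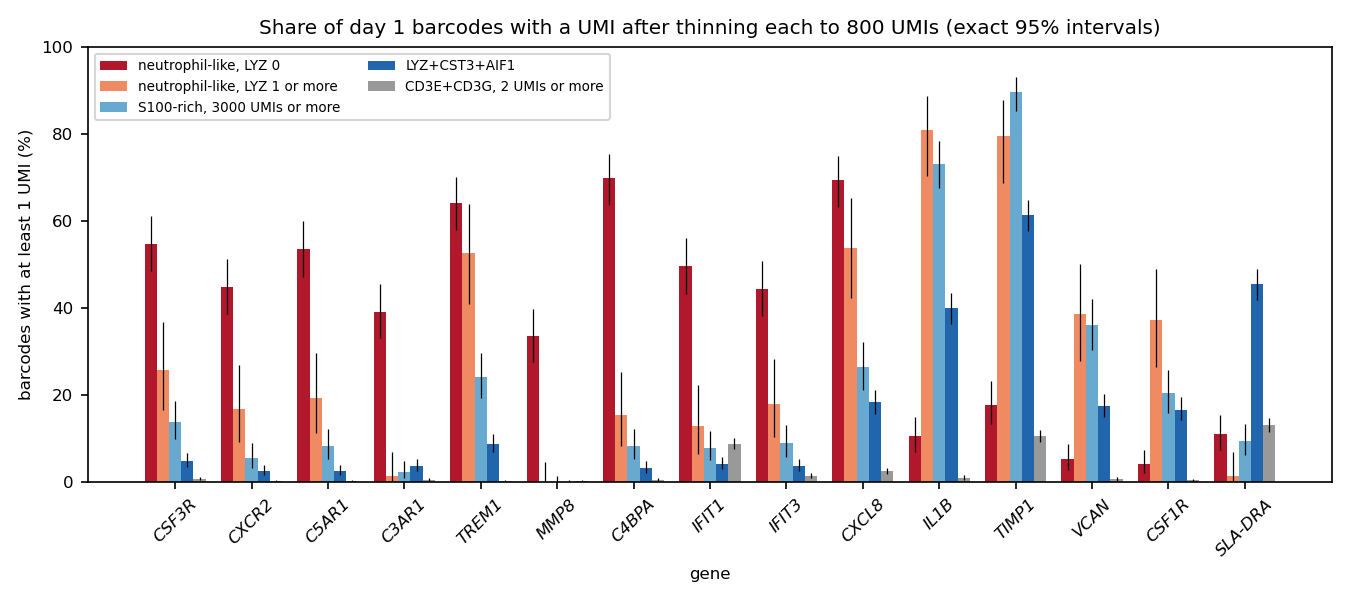
Percent of day 1 barcodes with at least 1 UMI of each gene (y axis) after thinning every barcode to 800 UMIs, in 5 groups, with exact 95% binomial intervals as bars. CSF3R, CXCR2, C5AR1, C3AR1, TREM1, MMP8, C4BPA, IFIT1, IFIT3 and CXCL8 are most frequent in the neutrophil-like barcodes without LYZ (C4BPA 69.8%), and IL1B, TIMP1, VCAN and CSF1R in those with LYZ and in the S100-rich barcodes of 3000 UMIs or more.

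The split moved with depth. A LYZ UMI was present in 4 of 159 barcodes of 800 to under 1200 UMIs (2.52%), 35 of 115 of 1200 to under 2000 (30.4%) and 39 of 52 of 2000 to under 3000 (75%). Over all members the level of C4BPA was 18.4, 11.3 and 3.23 UMIs per 10000 in these 3 ranges, that of IFIT1 27.5, 10.5 and 2.12, that of LYZ 0.261, 13.1 and 43.9, and that of IL1B 5.36, 47.9 and 76.6. Among barcodes without LYZ alone, C4BPA stood at 18.8, 14.9 and 6.20, and IFIT1 at 27.8, 14.5 and 5.27, so depth also ordered the levels within that class. Within 1200 to under 2000 UMIs, where 80 barcodes without LYZ met 35 with it, MMP8 had 116 UMIs against 0 and C3AR1 83 against 1. C4BPA was 3.53-fold, IFIT1 5.36-fold, CXCR2 2.19-fold and CSF3R 1.56-fold higher without LYZ in that range, and the ratio of IL1B was 0.109. Within 2000 to under 3000 UMIs, where 13 barcodes without LYZ met the 39 with it, IL1B was nearly level, at 70.7 and 78.7 UMIs per 10000, and so was ARG1, at 35.3 and 41.3. The part of depth in the differences of the LYZ split was not tested beyond these ranges.

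**Figure D4:**
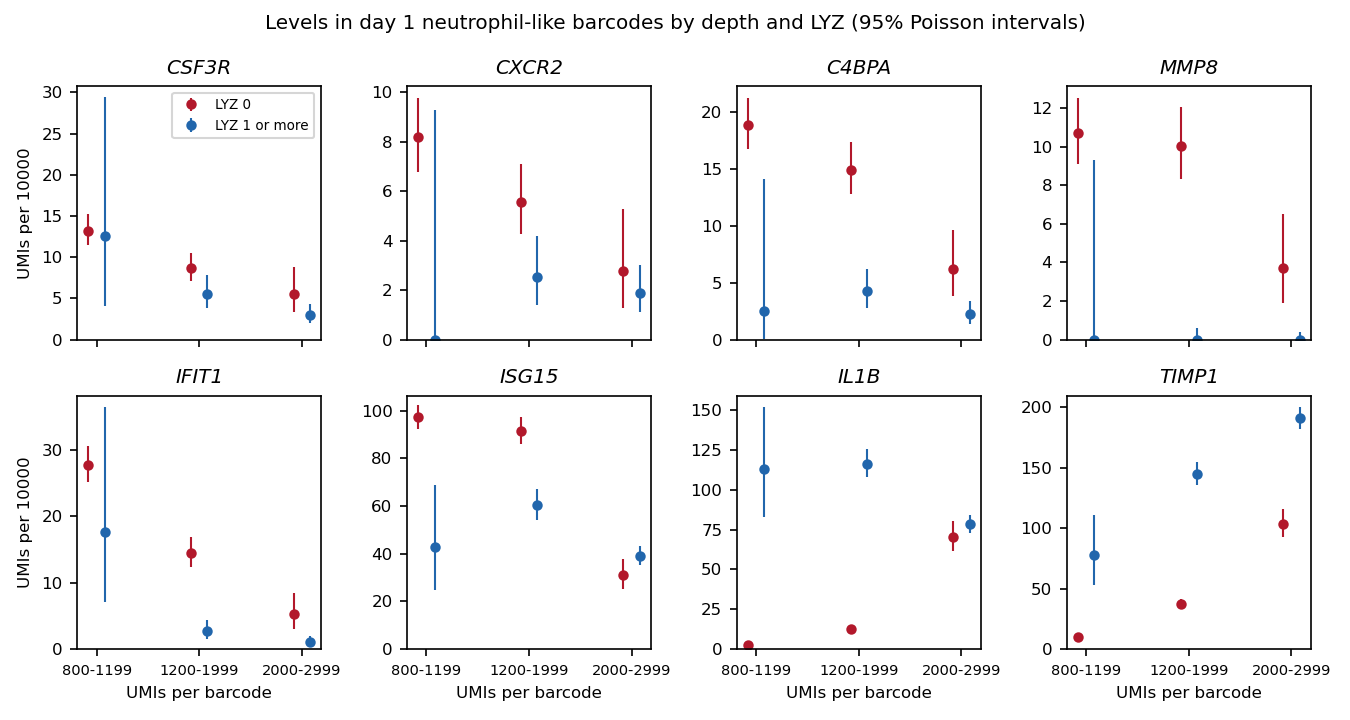
Levels of 8 genes in UMIs per 10000 (y axes) in day 1 neutrophil-like barcodes of 3 UMI ranges (x axis), without LYZ in red and with LYZ in blue, with 95% Poisson intervals. MMP8 is at 0 in every range with LYZ, C4BPA and IFIT1 decline with depth without LYZ, TIMP1 is higher with LYZ in each range, and the shallowest range holds 4 barcodes with LYZ.

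Individual barcodes varied widely in the interferon-stimulated and granule genes. Summed over IFIT1, IFIT2 and IFIT3, 115 of 326 barcodes (35.3%) had no UMI, 119 had 1 to 4 and 92 (28.2%) had 5 or more, with a median of 2 and a highest value of 41. Of the barcodes with 5 or more, 84 were among the 248 without LYZ and 8 among the 78 with it. MMP8 was seen in 96 barcodes, with a highest value of 18 UMIs, and IL1B in 97, with a highest value of 136. IL1B was present in 68 of the 78 barcodes with LYZ and in 29 of the 248 without. Across the 326 barcodes, which share 1 library and differ in depth, Spearman's rho of the shares of UMIs was 0.559 between IFIT1 and IFIT3, 0.699 between LYZ and IL1B, -0.475 between LYZ and C4BPA and -0.543 between IL1B and C4BPA.

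The 16 barcodes of the other ages are described as a set, since no library among them reached 50. They had 972 to 2847 UMIs, with a median of 2180.5, and 23 to 122 S100 UMIs. LYZ was present in 13, IL1B in 12, and CXCR2 or CSF3R in 10. Their 34693 UMIs held 19 of CXCR2 and 13 of CSF3R, where the level of all day 1 neutrophil-like barcodes would give 17.4 and 29.1 and that of those with LYZ 7.24 and 14.5. C4BPA had 2 UMIs, both at day 0, where the same levels would give 39.7 and 10.3, and MMP8 had 0, where they would give 22.0 and 0. These expected counts do not match depth, since the day 1 barcodes had a median of 1218 UMIs. In day 1 barcodes of 2000 to under 3000 UMIs, C4BPA stood at 3.23 and MMP8 at 0.944 UMIs per 10000, and 75% held LYZ. Age and depth are therefore mixed here, and the part of each was not tested. IFIT1 had 24 UMIs, 19 of them at day 14 and 5 at day 3, against 48.1 at the level of all day 1 barcodes and 7.24 at that of those with LYZ, so it lay below the first and above the second. CXCL8 had 3 UMIs against 111 and 61.0, below both. The 2 barcodes of day 0 held 5 LYZ UMIs, the 5 of day 3 held 139, the 2 of day 7 held 98 and the 7 of day 14 held 43. Most of the 16 barcodes thus carried LYZ and IL1B, and 6 had a UMI of neither receptor. MMP8 was thus at 0 both in the 16 barcodes and in the day 1 barcodes with LYZ, and with 2 to 7 barcodes in a library no age can be described by itself.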

How the data were processed

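Droplet 3' single-cell RNA sequencing was done on 6 ileal libraries, 1 for each age. The authors counted UMIs per gene and barcode with Cell Ranger 3.1.0 and STAR on susScr11, and deposited unfiltered matrices of raw counts, with no normalization, in which nearly all barcodes are empty droplets. The methods name kit chemistry v2 and the labels V3. How reads on both strands or of near-identical genes were assigned is not given in the sources used here.

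Barcodes were selected by UMI counts as the report states, and counts were summed per group and scaled to 10000 UMIs. Ratios carry exact Poisson intervals and shares exact Clopper-Pearson intervals at 95%. For a printed ratio, a side at 0 was set to 3 counts over the group. For calls, list medians and ranks, any side under 3 counts was raised to 3. Genes needed 20 UMIs in either group and a 4-fold ratio to be called. With 1 library per age no test was made and cells were not used as replicates. The named genes were those of the rule and of 15 gene lists with at least 20 UMIs in the members, or whose absence bears on the label, and the 10 highest and 10 lowest ratios. The members and lists were chosen with earlier results of these data known. PADI4 and a few other genes outside the lists came from the ranks, and TIMP1 was added after its values were seen. Symbols and positions follow the RefSeq table of Sscrofa11.1, which matched all 20648 symbols. Alternatives changed the UMI range, the S100 minimum, the gates, the scaling (TMM, edgeR 4.0.16) and the comparison barcodes. Ratio intervals were tested on simulated data with counting error only, for genes with many UMIs in the comparison group. Spread between barcodes was not simulated, so the intervals do not cover it. Python 3.11.15, numpy 2.4.6, scipy 1.17.1, pandas 2.3.3 and matplotlib 3.10.9 were used. Library totals limit precision: with 454807 UMIs in the day 1 members, a gene at 0 could be at up to 0.0660 per 10000. A few members of the lists are not reported by name here.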

Additional observations from a re-analysis of the deposited data

Results flagged for a closer look

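Below the UMI range of the report, 104 further barcodes of day 1 held 100 to under 800 UMIs, at least 20 S100 UMIs and passed the same limits on T, B and epithelial genes, which places them outside the comparisons above. The other libraries held 2 at day 3, 1 at day 14 and 0 at day 0, day 7 and day 21. These 104 barcodes had a median of 670.0 UMIs and 352 genes. Their levels, in UMIs per 10000, were 15.2 for CSF3R, 9.75 for CXCR2, 15.2 for C5AR1, 16.5 for C4BPA, 26.1 for IFIT1 and 10.4 for MMP8, and LYZ had 6 UMIs (0.900 per 10000). In free RNA of the same library CSF3R was 0.196, C4BPA 0.170 and IFIT1 0.553. The 800 UMI limit thus left out day 1 barcodes that carried the receptors, C4BPA, IFIT1 and MMP8 at levels near those of the 159 barcodes of 800 to under 1200 UMIs, where CSF3R was 13.2, C4BPA 18.4, IFIT1 27.5 and MMP8 10.5.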

How the results depend on the processing

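The day 1 count of 326 became 200 with at least 40 S100 UMIs, and stayed within 1.5 times, from 305 to 437, under the other UMI, gene and mitochondrial settings and at 10 S100 UMIs. The 16 barcodes of the other ages became 27 with 800 to under 5000 UMIs. The S100 ratio to free RNA was 73.8 with free RNA read from 10 to 100 UMIs and 77.6 from above 100 up to 300. The 485 genes higher than in LYZ+CST3+AIF1 barcodes became 988 with TMM, 160 with comparison barcodes of 3000 to under 5000 UMIs and 224 with S100-rich barcodes as comparison. The 1632 lower genes became 977 with the same gates on the comparison barcodes, 517 with TMM, 1065 with a mean over barcodes, 316 with 3000 to under 5000 UMIs and 401 with S100-rich barcodes. IL1B reversed, to 0.956, with 3000 to under 5000 UMIs. Of 25 ratios called among 27 followed, between 17 and 25 kept their call under 11 settings, and the cause of the losses was not tested. The comparison barcodes of 3000 to under 5000 UMIs, S100-rich barcodes, members without LYZ, other gates and the settings of the LYZ split were chosen after seeing the data. Counting error, 1 library per age and the UMI limit bound all values. Gene comparisons between ages were not run, because only day 1 held 50 members. No paired analysis was possible because each age has 1 library and no replicate.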
